A study of Mus with 12 samples.

Results

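Annotated genes of the mouse uterus were compared between embryonic day 0.5 (E0.5), when eggs have just been fertilized in the oviduct, and embryonic day 4.5 (E4.5), the time of implantation. Rows of the deposited gene table were kept where they list an Ensembl mouse transcript, which gave 53158 of 87235 rows. Of these, 25785 rows had a mean of at least 0.1 FPKM (a level per transcript length and sequencing depth) and were tested, with 15079 protein-coding, 3558 long noncoding RNA (lncRNA), 3585 pseudogene and 3563 other rows. Rows below that level were 27373. A row is a locus, and 1529 tested annotated rows name more than 1 gene.

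The study sequenced RNA from the uteri of 12 ICR mice, an outbred strain, at 4 times of pregnancy, to find transcripts that may follow progesterone around implantation and labor. The 6 libraries used here came from 3 mice at E0.5 and 3 mice at E4.5, all ICR and described as 8 weeks old, mated with males and given no other treatment that the sources name. Each library held the whole uterus of 1 mouse, so luminal and glandular epithelium, stroma, muscle, vessels and blood cells were mixed, and the sources do not say whether embryos were removed at E4.5 or whether implantation sites were separated from the tissue between them. The protocol in the labels speaks of an adipose type of tissue, although every sample is labelled uterus, and describes poly(A) selection, whereas the methods describe depletion of ribosomal RNA. Mice were separate animals, and p-values measure the spread between 3 animals a day. In such bulk samples, fewer cells of a type and less RNA per cell cannot be told apart.

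In the mouse, the uterus at E0.5 follows the estrogen peak of estrus and the coitus, and its luminal epithelium secretes antimicrobial proteins, mucus and fluid. Progesterone from the new corpora lutea then dominates. It acts through the progesterone receptor in epithelium and stroma, in part through Indian hedgehog, a signal that passes from epithelium to stroma. A small rise of estrogen before implantation makes the uterus receptive for a short time, epithelial cells stop dividing, and stromal cells divide and begin to differentiate into decidua around the attached embryo.

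The library E4.5 replicate 3 stood apart from the rest, and where it lay is therefore given for most of the results. Total counts were 58020989 to 70906881 per library. The Spearman correlation with another library of the same day, across 15947 annotated rows whose mean reached 1 FPKM, was 0.885 to 0.910 for every pair without E4.5 replicate 3. It was 0.725 and 0.711 for E4.5 replicate 3 with E4.5 replicates 1 and 2, which correlated with the E0.5 libraries at 0.732 to 0.772 (genes are not independent replicates). E0.5 replicate 3 stood apart in Xist, the RNA of the inactive X chromosome in female cells, whose row also names Gm27733 and Gm27927, with 0.0801 FPKM (127 counts) against 90.7 and 92.3 FPKM in E0.5 replicates 1 and 2 and 107, 128 and 68.7 FPKM at E4.5. The Y-linked genes Ddx3y, Eif2s3y, Kdm5d and Uty had no counts in E0.5 replicate 3. Annotated rows with counts numbered 30145 in E4.5 replicate 3 and 27472 to 27988 in the other libraries.

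Marker lists of other cell types located the difference in part. The 14 tested markers of ovarian granulosa and luteal cells summed to 12.7 to 15.6 FPKM in the other libraries and to 1965 FPKM in E4.5 replicate 3, which had the highest value for 14 of 14. Hsd3b1, an enzyme of steroid synthesis in luteal and granulosa cells, had 0.0439, 0.053 and 0.0368 FPKM at E0.5 against 0.0541, 0.0475 and 519 FPKM at E4.5. Cyp19a1 and Fshr, 2 genes that define granulosa cells, had no counts in the other libraries. The 13 tested oocyte markers summed to 0.670 to 1.71 FPKM in the other libraries and to 110.0 FPKM in this library. Of them, 4 had no counts elsewhere. Because the filter of 0.1 FPKM took the mean of all 6 libraries, nearly all of the 13 passed it only through E4.5 replicate 3. Of 16 listed oocyte markers, 3 were below the filter, among them Figla, with no counts in any library. The 16 tested markers of multiciliated epithelium, which lines the oviduct, summed to 33.8, 23.0 and 7.49 FPKM at E0.5 against 6.79, 7.65 and 58.0 FPKM at E4.5. Among them, Tppp3 had 17.3, 19.1 and 3.71 FPKM at E0.5. Foxj1 had 2.67, 0.954 and 0.635 FPKM at E0.5 against 0.0423, 0.118 and 9.73 FPKM at E4.5. Dnah5 had 3.35, 0.760 and 0.225 FPKM at E0.5 against 0.109, 0.163 and 8.06 FPKM at E4.5. E0.5 replicate 1 was thus second to E4.5 replicate 3 in both. Markers of secretory oviduct cells were uneven. The 4 tested rows summed to 18.7 FPKM in E4.5 replicate 3 and to 13.4 to 19.9 FPKM elsewhere. Sod3, among them, had 7.23 FPKM in E4.5 replicate 3 against 2.43 FPKM or less. A row that joins Ovgp1, the oviduct glycoprotein, with Wdr77 and Gm42890 is left out of the sum. That row had 69.6 FPKM in E4.5 replicate 3, 12.1 FPKM in E0.5 replicate 1 and 3.54 to 4.38 FPKM in the others. The 9 tested genes that define the uterus were present in all 6 libraries, with Esr1, the estrogen receptor, at 9.62, 15.54 and 15 FPKM at E0.5 against 12.4, 16.8 and 5.54 FPKM at E4.5. Their sum was 148 FPKM in E4.5 replicate 3 and 412 to 665 FPKM in the other libraries, and 8 of 9 were lowest in this library.

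The other marker lists were compared between the days by their sums. Endothelial markers (11 tested) summed to 40.0 to 53.2 FPKM at E0.5, against 63.8 to 98.6 FPKM at E4.5, without overlap. This separation rested on Cdh5, with 6.03, 7.45 and 7.26 FPKM at E0.5 against 26.3, 20.01 and 11.5 FPKM at E4.5. Without Cdh5, the sums of the days overlapped. Pecam1, Vwf, Plvap and Cldn5 overlapped between the days, and the remaining rows did not. Mesothelial markers (6 tested) summed to 64.4 to 68.5 FPKM at E0.5, against 21.0 to 31.8 FPKM at E4.5, but most of this was Krt19, also a keratin of the uterine epithelium. Without Krt19, the 5 remaining rows summed to 20.6, 13.0 and 15.2 FPKM at E0.5, against 16.0, 18.4 and 17.6 FPKM at E4.5, and the days overlapped. Fat markers (11 tested) summed to 278, 94.7 and 90.3 FPKM at E0.5, against 31.7, 17.0 and 97.5 FPKM at E4.5, with overlap through E4.5 replicate 3. Squamous markers of cervix and vagina (9 tested) reached 20.8 and 17.3 FPKM in E0.5 replicates 1 and 3, against 0.936 FPKM in E0.5 replicate 2, where 6 of 9 had no counts, and 2.54, 6.06 and 1.63 FPKM at E4.5, where 6 of 9 had no counts in E4.5 replicate 3. Red cell markers (4 tested) varied within each day, between 97.3 and 267 FPKM among E0.5 libraries and between 63.6 and 704 FPKM among E4.5 libraries. B and plasma cell markers (6 tested) summed to 3.79, 8.87 and 8.40 FPKM at E0.5, against 3.05, 2.69 and 8.21 FPKM at E4.5, and striated muscle markers (4 tested) to 9.35 to 22.5 FPKM, against 25.4, 9.57 and 0.961 FPKM, and both overlapped between the days. Of 14 markers of blastocyst and trophoblast, 9 were below the filter, and the remaining 5 summed to 1.39 to 2.19 FPKM at E0.5, 2.62 and 2.71 FPKM in E4.5 replicates 1 and 2, and 12.7 FPKM in E4.5 replicate 3, where Gata4, also a gene of granulosa cells, had 11.3 FPKM.

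**Figure D1:**
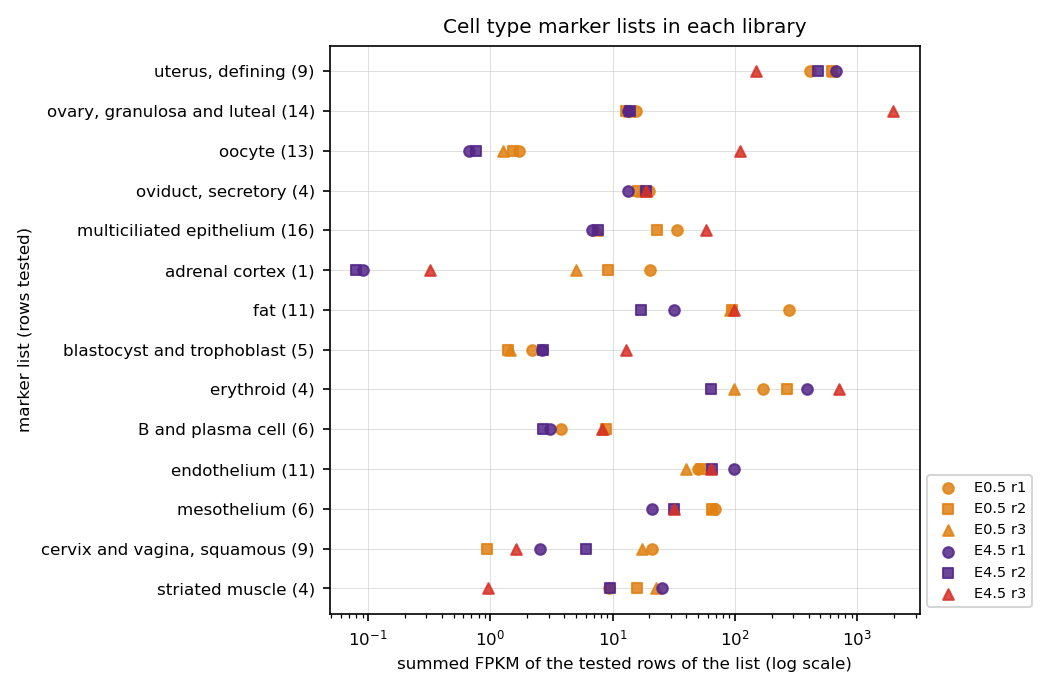
Summed FPKM of the tested rows of each marker list (x axis, log scale) in each of the 6 libraries, with the number of rows in brackets; orange symbols are E0.5, purple symbols E4.5 replicates 1 and 2 and red triangles E4.5 replicate 3. The red triangle stands far to the right for ovary (1965 FPKM) and oocyte (110.0 FPKM) markers and to the left for the genes that define the uterus (148 FPKM).

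Differences between the days were tested with edgeR's quasi-likelihood test on counts, over all rows of the table that passed the filter. A log2 fold change is given as E0.5 over E4.5, so a positive value means higher at E0.5. By the criterion of the study, a log2 fold change of 1 or more in size together with an unadjusted p under 0.05, 3088 annotated rows differed, 1385 higher and 1703 lower at E0.5. The excess of lower rows was not found with upper-quartile scaling (1549 higher and 1513 lower) or without E4.5 replicate 3 (1789 higher and 1756 lower). With a Benjamini-Hochberg adjusted p under 0.05 in place of the unadjusted p, 474 differed, 270 higher and 204 lower. Among protein-coding rows, 6.36% were higher and 8.26% lower by the study's criterion, and 1.6% and 1.29% by the adjusted p. Without E4.5 replicate 3, the adjusted p called 1764 annotated rows, 859 higher and 905 lower, and among protein-coding rows 4.79% and 5.08%. The median log2 fold change of protein-coding rows was -0.16 over 6 libraries and -0.04 without E4.5 replicate 3. Leaving out 1 library also leaves fewer mice in the fit, and it changed the counts past the adjusted p. They were 13, 0 and 15 without E0.5 replicate 1, 2 or 3, and 27 and 90 without E4.5 replicate 1 or 2 (the 0 in edgeR's test stood beside 3633 annotated rows at an unadjusted p under 0.05). Counts by the study's criterion lay between 2575 and 3545 in the same fits. With 3 mice against 3, permuting the labels of 1 gene exactly cannot give a p below 0.1.

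For each programme, the following readings are given: the count by the study's criterion over 6 libraries, the count past the adjusted p over 6 libraries, and the count past the adjusted p without E4.5 replicate 3. For the rows called without it, the value of E4.5 replicate 3 was then placed on a scale where 0 is the mean of the E0.5 libraries and 1 the mean of E4.5 replicates 1 and 2 (log2 CPM). Since these rows were chosen without that library, its position was free to differ. It lay beyond the E0.5 range on the side of the other E4.5 libraries for 1424 of 1764 rows (80.7%), within the E0.5 range for 171 (9.69%) and beyond it on the opposite side for 169 (9.58%), with a median position of 0.72. The library was nearer to its day for rows higher at E0.5 (median 0.82 over 859 rows) than for rows lower at E0.5 (median 0.62 over 905 rows), a difference that was not tested. Where each other library was left out in the same way and rows were taken by the study's criterion, 0.880% to 3.05% lay on the opposite side, against 13.3% for E4.5 replicate 3. Positions and ranges are on the log2 CPM scale, where a value can fall on another side of a range than its FPKM does, and are descriptions with no test.

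Counts of each list stand beside the shares over all protein-coding rows, which were 6.36% higher and 8.26% lower by the study's criterion. By the adjusted p these shares were 1.6% and 1.29%, and without E4.5 replicate 3 they were 4.79% and 5.08%. The 33 programme lists held 816 distinct tested rows, of which 226 were called without E4.5 replicate 3. This library lay on the E4.5 side for 193 of them, within the E0.5 range for 14 and on the opposite side for 19. Of 27 lists with at least 3 called rows, 8 had every called row on the E4.5 side: mitosis, DNA replication, interferon-stimulated genes, implantation and decidualization, cornified envelope, complement, the EGF family and steroid enzymes. In 3 lists, fewer than 1 in 2 called rows lay on that side: natural killer (NK) and T cell genes, BMP and activin, and lncRNAs.

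**Figure D2:**
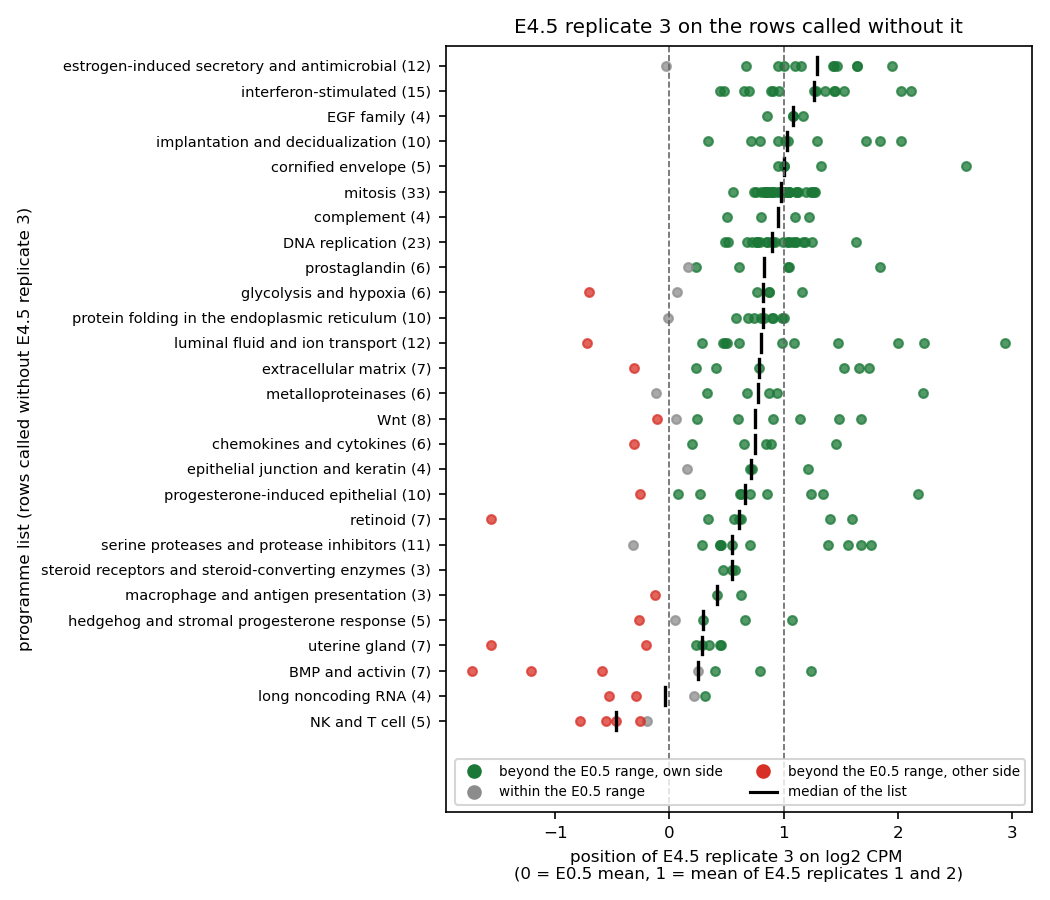
Position of E4.5 replicate 3 on the log2 CPM scale (x axis, 0 for the E0.5 mean and 1 for the mean of E4.5 replicates 1 and 2) for each row called without it, by programme list (y axis, called rows in brackets); bars are list medians and colours give the side of the E0.5 range. Medians run from -0.47 for NK and T cell genes to 1.29 for estrogen-induced secretory genes, and mitosis has 33 of 33 points on the E4.5 side.

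**Figure D3:**
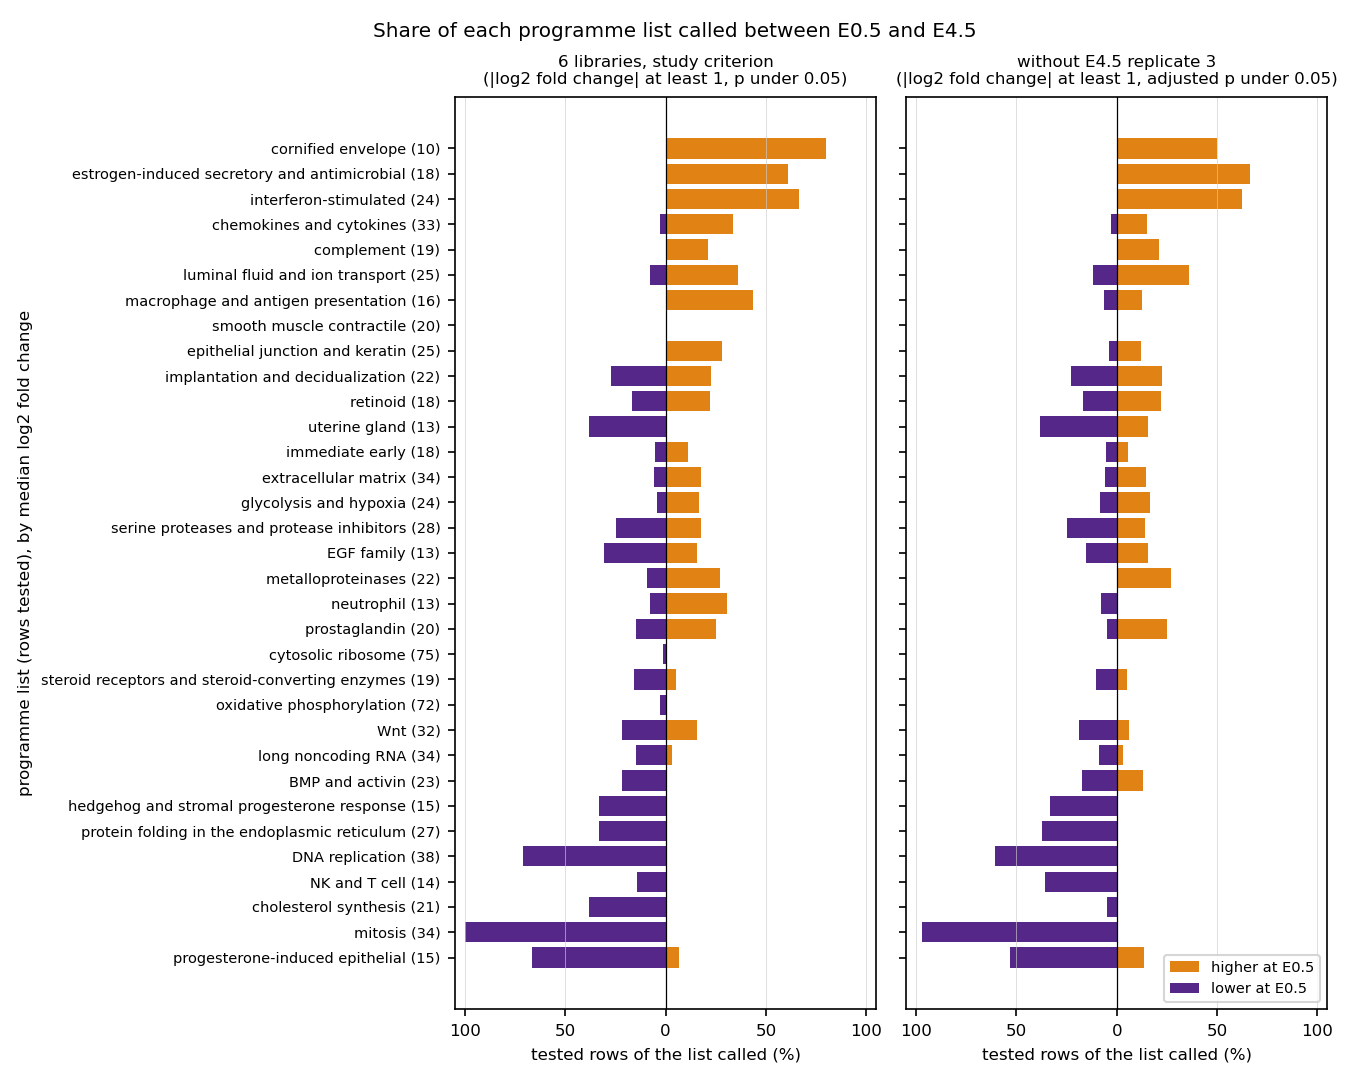
Share of the tested rows of each programme list (in brackets) called higher at E0.5 (orange, to the right) or lower at E0.5 (purple, to the left), by the study's criterion over 6 libraries (left panel) and by the adjusted p without E4.5 replicate 3 (right panel). Mitosis (34 rows) is lower in both panels, whereas cholesterol synthesis (21 rows) has 8 calls in the left panel and 1 in the right.

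Secretory and antimicrobial genes induced by estrogen in epithelium were higher at E0.5. Of 18 tested genes, 11 were higher and 0 lower by the study's criterion, 8 were past the adjusted p and 12 passed it without E4.5 replicate 3. The median log2 fold change was 3.77 (3.61 without that library). Lcn2 (chromosome 2, 32384633 to 32388252, build GRCm38), an iron-scavenging antimicrobial lipocalin, had 321, 308 and 318 FPKM at E0.5 against 2.21, 1.22 and 2.23 FPKM at E4.5, and its log2 fold change was 7.38, SE 0.35 (adjusted p = 0.00505 in edgeR's test). Clca1, a secreted protein of mucus-producing cells, had 178, 319 and 516 FPKM at E0.5 against 0.455, 0.918 and 0.0404 FPKM at E4.5 (9.48, SE 1.29). Ltf, lactotransferrin, the classical estrogen-induced protein of this epithelium, had 537, 347 and 469.7 FPKM at E0.5 against 2.99, 5.15 and 20.02 FPKM at E4.5 (5.63, SE 0.78). Muc1 and Muc4 are mucins of the apical surface. Muc1 had 45.8, 68 and 79.8 FPKM at E0.5 against 3.89, 4.45 and 1.24 FPKM at E4.5 and Muc4 17.7, 18.9 and 31.2 FPKM at E0.5 against 0.429, 0.567 and 0.0967 FPKM at E4.5, and both passed the adjusted p in both fits. E4.5 replicate 3 lay with its day or below it for Muc1, Muc4 and Clca1. Ltf was higher in it than in E4.5 replicates 1 and 2. Anxa8 was the called gene for which this library lay within the E0.5 range, with 1.53, 1.68 and 2.04 FPKM at E0.5 against 0.32, 0.373 and 1.91 FPKM at E4.5. Clu, Wfdc2 and Gabrp, also on this list, were not called, with log2 fold changes of -0.11, 0.8 and 1.29. E4.5 replicate 3 lay on the E4.5 side for 11 of 12 called genes, at a median position of 1.29.

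Genes of the cornified envelope, which encode small proline-rich proteins, keratins and a crosslinking enzyme of squamous barriers and which estrogen also induces in the uterus, had the largest median log2 fold change of the 33 lists. Of 18 listed genes, 6 were below the filter. Of 10 tested rows, 8 were higher by the study's criterion, 4 were past the adjusted p and 5 passed it without E4.5 replicate 3. Among the tested rows, 4 had no counts at E4.5 (Sprr2b, Sprr2d, Sprr2e and Krt6a), so they passed the filter only through their level at E0.5. The median log2 fold change of the 10 rows was 8.35, or 6.79 where rows listed at 0 in a group took their lower bound. Sprr2f had 317, 656 and 774 FPKM at E0.5 against 2.57, 2.11 and 0.37 FPKM at E4.5 (8.41, SE 0.91, adjusted p = 0.0205 in edgeR's test). The shared row of Sprr2a1, Sprr2a2 and Sprr2a3 had 10.5, 19.4 and 15 FPKM at E0.5 against 0.011, 0.000661 and 0.00813 FPKM at E4.5. Sprr2 genes are near-identical neighbours on chromosome 3, so their reads can be split between them. Sprr2b had 18.9, 51.8 and 10.6 FPKM at E0.5, against no counts at E4.5, a difference of at least 1687-fold with 3 counts over the E4.5 group as the floor. E4.5 replicate 3 agreed in 5 of 5 called rows. Squamous markers of cervix and vagina, which share Krt6a and Krt13 with this list, also varied between the E0.5 libraries. Of these markers, 6 of 9 had no counts in E4.5 replicate 3, and 6 of 9 had none in E0.5 replicate 2. In E0.5 replicate 2, Krt6a and Krt13 had no counts and Sprr2f was at 656 FPKM. The mean log2 CPM of the list, relative to its E0.5 mean, was -1.13 there, against 0.56 and 0.57 in E0.5 replicates 1 and 3. The part of squamous tissue was not tested.

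Of 19 complement genes, 4 were higher and 0 lower at E0.5 by the study's criterion (3 by the adjusted p, and 4 without E4.5 replicate 3), with 1 lower without E0.5 replicate 3, E4.5 replicate 1 or E4.5 replicate 2. The 4 were C3, Cfi, a row that joins C4b and C4a, and a row that joins Cfb, C2 and Gm20547. C3 (chromosome 17, 57203970 to 57228136), the central component, had 707, 578 and 695 FPKM at E0.5 against 41.7, 46 and 35.6 FPKM at E4.5 (4.01, SE 0.23, adjusted p = 0.00508 in edgeR's test). Cfi, a protease that inactivates C3b, had 14.2, 18.2 and 20.5 FPKM at E0.5 against 1.53, 1.59 and 0.97 FPKM at E4.5 (3.69, SE 0.3). The row of Cfb and C2, proteases that activate C3, had 69.1, 72.8 and 66.5 FPKM at E0.5 against 2.19, 2.62 and 13.4 FPKM at E4.5, where E4.5 replicate 3 stood at a position of 0.5. Thus activator and inhibitor genes were higher on the same day. The remaining 15 genes did not meet the criterion, and E4.5 replicate 3 lay on the E4.5 side in 4 of 4.

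Of 24 interferon-stimulated genes, 16 were higher at E0.5 by the study's criterion and 0 lower, 7 passed the adjusted p and 15 passed it without E4.5 replicate 3 (median log2 fold change 1.68 and 1.70). Zbp1, a sensor of Z-form nucleic acids, had 4.38, 4.14 and 3.63 FPKM at E0.5 against 0.15, 0.295 and 0.0536 FPKM at E4.5 (4.6, SE 0.61). Oas3, a synthase that activates RNase L on double-stranded RNA, had 3.01, 3.4 and 3.78 FPKM at E0.5 against 0.239, 0.595 and 0.151 FPKM at E4.5 (3.38, SE 0.52), and Mx1, an antiviral GTPase, 1.45, 1.44 and 2.69 FPKM at E0.5 against 0.149, 0.305 and 0.126 FPKM at E4.5 (3.27, SE 0.46). These 3 genes passed the adjusted p in both fits and were lowest in E4.5 replicate 3. Ifi27l2a had the highest level of the list, with 32.8, 45.2 and 47.4 FPKM at E0.5 against 4.95, 2.92 and 15.2 FPKM at E4.5 (2.47, SE 0.59, adjusted p = 0.106 over 6 libraries, and 3.38, adjusted p = 0.00395 without E4.5 replicate 3, in edgeR's test). The programme was not uniform, since Ifit3, Rsad2 and Bst2 had log2 fold changes of -0.18, -0.08 and 0.28 and were not called. E4.5 replicate 3 lay on the E4.5 side for 15 of 15 called genes, at a median position of 1.27.

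Of 33 chemokine and cytokine genes, 11 were higher and 1 lower at E0.5 by the study's criterion. The adjusted p called 2 of them, Ccl28 and Cx3cl1, and without E4.5 replicate 3 it called 5 higher and 1 lower. The count lower by the study's criterion was 2 without E0.5 replicate 1 or E4.5 replicate 3. Ccl28, an epithelial chemokine that attracts IgA plasma cells, had 9.69, 12 and 11.4 FPKM at E0.5 against 0.257, 0.253 and 1.0 FPKM at E4.5 (4.49, SE 0.6). Cxcl16 had 5.86, 6.63 and 10.3 FPKM at E0.5 against 2.29, 1.89 and 1.24 FPKM at E4.5 (2.07, SE 0.35, adjusted p = 0.0507 in edgeR's test), and Cxcl5, a neutrophil attractant, 1.97, 2.7 and 0.977 FPKM at E0.5 against 0.31, 0.69 and 0.117 FPKM at E4.5 (2.33, SE 0.7). The gene lower at E0.5 was Il15, which sustains NK cells, with 0.722, 0.605 and 0.72 FPKM at E0.5 against 3.13, 2.2 and 0.927 FPKM at E4.5 (-1.62, SE 0.48). Ccl21a, a chemokine of lymphatic vessels, was called without E4.5 replicate 3, whose value of 14.5 FPKM lay above the E0.5 range of 8.01, 5.31 and 6.28 FPKM, whereas the remaining E4.5 libraries had 0.971 and 0.243 FPKM. The library agreed in 5 of 6 called genes of this list.

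Leukocyte genes were tested in lists of their own. Of 16 macrophage and antigen presentation genes, 7 were higher at E0.5 by the study's criterion and 1 passed the adjusted p over 6 libraries. That gene was Csf1r, the receptor that macrophages need for survival, with 9.3, 10.8 and 9.03 FPKM at E0.5 against 1.62, 2.61 and 3.86 FPKM at E4.5 (1.88, SE 0.3, adjusted p = 0.0449 in edgeR's test). Mrc1, a mannose receptor of tissue macrophages, had 4.74, 7.21 and 6.28 FPKM at E0.5 against 1.36, 1.24 and 3.31 FPKM at E4.5 (1.65, SE 0.4), and Adgre1, which encodes F4/80, 4.12, 7.55 and 7.23 FPKM at E0.5 against 2.55, 2.82 and 3.58 FPKM at E4.5 (1.1, SE 0.28). All 3 were higher in E4.5 replicate 3 than in the other E4.5 libraries but below the E0.5 range, and it agreed in 2 of 3 genes of the list called without it. The third was lower at E0.5, Itgax, an integrin of dendritic cells, with 0.396, 0.49 and 0.388 FPKM at E0.5 against 1.06, 1.14 and 0.387 FPKM at E4.5, and 2 genes were lower by the study's criterion without E4.5 replicate 3, against 0 over 6 libraries. H2-Aa, H2-Ab1 and H2-Eb1, which encode class II antigen-presenting chains, were not called, and Cd74, their invariant chain, had 20.2, 16.5 and 13.4 FPKM at E0.5 against 10.4, 18 and 22 FPKM at E4.5 (0.01, SE 0.28). Of 22 neutrophil genes, 9 were below the filter. Of the 13 tested, 4 were higher and 1 lower by the study's criterion. None of the 13 passed the adjusted p over 6 libraries in edgeR's test (5 had an unadjusted p under 0.05, and DESeq2 called 4). Mmp9, a protease of neutrophil granules, had 1.53, 4.05 and 4.58 FPKM at E0.5 against 0.497, 0.906 and 0.778 FPKM at E4.5 (2.24, SE 0.46). The count of neutrophil genes higher at E0.5 was 2 without E0.5 replicate 3, and the count lower was 3 without E0.5 replicate 2 and 0 without E0.5 replicate 1, E0.5 replicate 3, E4.5 replicate 1 or E4.5 replicate 2. Ctsg, a granule protease and the 1 gene called without E4.5 replicate 3, had no counts at E0.5 or in this library, against 0.897 and 0.544 FPKM in E4.5 replicates 1 and 2.

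NK and T cell genes depended on E4.5 replicate 3. Of 14 tested rows, 2 were lower at E0.5 by the study's criterion and 0 were past the adjusted p over 6 libraries in edgeR's test (2 had an unadjusted p under 0.05, and DESeq2 called 3), and 5 passed it without E4.5 replicate 3 (8 by the study's criterion). The median log2 fold change was -1.40 (-1.94 without that library). Gzmf and Gzmc encode granzymes of uterine NK cells. Gzmf had 1.6, 0.882 and 3.98 FPKM at E0.5 against 33.5, 26 and 1.05 FPKM at E4.5, Gzmc 1.95, 1.25 and 2.32 FPKM at E0.5 against 17.6, 14.1 and 1.06 FPKM at E4.5 and Gzma, a granzyme of NK and cytotoxic T cells, 0.663, 2.67 and 1.11 FPKM at E0.5 against 27, 10.2 and 0.378 FPKM at E4.5. In each, E4.5 replicates 1 and 2 lay well above the E0.5 libraries and E4.5 replicate 3 within or below their range. A row that joins Gzme, Gzmd and Gzmg had 2.1, 1.7 and 5.02 FPKM at E0.5 against 29.9, 12.3 and 0.564 FPKM at E4.5, and reads of these near-identical granzymes can be split. E4.5 replicate 3 was on the opposite side for 4 of 5 called rows and within the E0.5 range for 1, at a median position of -0.47, the lowest of the 27 lists. Without E0.5 replicate 1 or 2 or E4.5 replicate 1 or 2, no row of this list met the study's criterion, and without E0.5 replicate 3, 1 row did.

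Of 25 genes of epithelial junctions and keratins, 7 were higher and 0 lower at E0.5 by the study's criterion over 6 libraries, and 3 passed the adjusted p. The adjusted p called 3 higher and 1 lower without E4.5 replicate 3. Krt8 had 75.6, 53.9 and 65.7 FPKM at E0.5 against 14.4, 22.1 and 14.3 FPKM at E4.5 (1.96, SE 0.23), and its partner Krt18 70.5, 63.7 and 76.4 FPKM at E0.5 against 53.1, 81.8 and 30.6 FPKM at E4.5 (0.35, SE 0.34), which was not called. Krt19 had 47.8, 51.4 and 49.2 FPKM at E0.5 against 5.06, 13.3 and 14.1 FPKM at E4.5 (2.23, SE 0.36). Dsp, desmoplakin, which anchors keratins to desmosomes, had 14.5, 11.9 and 14 FPKM at E0.5 against 1.64, 2.64 and 3.82 FPKM at E4.5 (2.34, SE 0.29, adjusted p = 0.0263 in edgeR's test). Cdh1, Cldn7, Dsg2 and Pkp3 met the study's criterion at log2 fold changes of 1.14, 1.32, 1.01 and 1.13. Without E0.5 replicate 3, 4 genes were higher by this criterion, and without E4.5 replicate 3, 4 were higher and 2 lower, where these genes were at 0.85, 0.94, 0.85 and 0.76. Tjp1, a scaffold of tight junctions, was called in the opposite direction without it (-1.01), with 10.1, 10.6 and 12.5 FPKM at E0.5 against 23.1, 20.9 and 12.8 FPKM at E4.5. The remaining 3 of 4 called genes had E4.5 replicate 3 on the side of its day.

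Genes that progesterone induces in the epithelium were lower at E0.5. Of 15 tested genes, 10 were lower and 1 higher by the study's criterion, 4 were past the adjusted p, and without E4.5 replicate 3 there were 8 lower and 2 higher past the adjusted p (3 higher by the study's criterion, and 2 without E4.5 replicate 1) (median log2 fold change -2.56 and -2.29). Il13ra2, a decoy receptor of interleukin 13, had no counts at E0.5, whereas it had 4.13, 5.15 and 0.486 FPKM at E4.5, a difference of at least 3501-fold with 3 counts over the E0.5 group as the floor. Cyp26a1 (chromosome 19, 37697749 to 37701536), an enzyme that degrades retinoic acid, had 0.425, 0.199 and 0.303 FPKM at E0.5 against 72.6, 85 and 10.3 FPKM at E4.5 (-7.49, SE 0.94). Ihh, the epithelial hedgehog ligand, had 0.624, 0.551 and 0.343 FPKM at E0.5 against 3.08, 1.78 and 4.24 FPKM at E4.5 (-2.56, SE 0.41, adjusted p = 0.0449 in edgeR's test). Fst, follistatin, which binds activin, had 0.963, 0.799 and 0.693 FPKM at E0.5 against 7.94, 9.46 and 16.2 FPKM at E4.5 (-3.74, SE 0.31). For Il13ra2 and Cyp26a1, E4.5 replicate 3 was the lowest of its day but outside the E0.5 values. For Ihh and Fst it was the highest of its day. Ihh is also among the ovary markers of that library, and its part was not tested. Msx1, a homeobox gene of the uterus before attachment, was the gene higher at E0.5, with 57.2, 32.5 and 22.7 FPKM at E0.5 against 7.13, 10.7 and 1.83 FPKM at E4.5 (2.51, SE 0.66), and passed the adjusted p only without E4.5 replicate 3 (0.13 against 0.0307 in edgeR's test). Acod1, an enzyme that makes itaconate, was the called gene in which E4.5 replicate 3 lay on the opposite side, with 0.71, 1.37 and 0.769 FPKM at E0.5 against 9.01, 4.97 and 0.561 FPKM at E4.5. It agreed in 9 of 10 called genes of this list, at a median position of 0.67.

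The stromal side of this axis, hedgehog receptors and effectors with the progesterone response of the stroma, was lower at E0.5 for 5 of 15 tested genes by the study's criterion (3 without E0.5 replicate 1), 2 passed the adjusted p and 5 passed it without E4.5 replicate 3. Among them Ptch1, the receptor that hedgehog signalling itself induces, had 2.82, 2.43 and 2.34 FPKM at E0.5 against 8.89, 7.2 and 9.14 FPKM at E4.5 (-1.73, SE 0.18). Gli1, another direct target, had 0.847, 0.95 and 1.02 FPKM at E0.5 against 9.3, 6.83 and 1.84 FPKM at E4.5 (-2.68, SE 0.58). Both target genes lay on the E4.5 side in E4.5 replicate 3. Hand2, a stromal factor that restrains epithelial FGF signalling, did not, with 1.67, 1.78 and 2.75 FPKM at E0.5 against 22, 20.6 and 1.13 FPKM at E4.5 (log2 fold change -2.83, SE 0.97 over 6 libraries and -3.38 without that library). Fgf9, an FGF ligand, had 0.289, 0.752 and 0.562 FPKM at E0.5 against 3.74, 4.01 and 0.571 FPKM at E4.5, with E4.5 replicate 3 within the E0.5 range. It is counted with this list, although it went in the same direction as Hand2, which restrains FGF signalling. The row of Smo, the signal transducer, and Gli2 and Gli3, further transcription factors of the pathway, were not called, with log2 fold changes of 0.31, 0.43 and -0.41. In all, E4.5 replicate 3 agreed in 3 of 5 called genes. The list's median was -0.67 (-0.71 without E4.5 replicate 3).

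Of 13 tested uterine gland genes, 5 were lower and 0 higher at E0.5 by the study's criterion, namely Prss28, Prss29, Spink1, Ttr and S100g, and 1 of them, Prss28, passed the adjusted p over 6 libraries. Without E4.5 replicate 3, 5 were lower and 2 higher past the adjusted p. The median of the list was 0.30 (0.07 without E4.5 replicate 3). Prss29, an implantation serine protease, had 3.98, 0.804 and 0.241 FPKM at E0.5 against 446, 622 and 5.92 FPKM at E4.5 (-7.75, SE 1.94 and -8.34 without E4.5 replicate 3). Spink1, a trypsin inhibitor, had 0.061, 0 and 0.00636 FPKM at E0.5 against 10.5, 13.5 and 0.285 FPKM at E4.5, and S100g, a calcium-binding protein, 21.2, 28.7 and 52.4 FPKM at E0.5 against 865, 915 and 107 FPKM at E4.5 (-4.21, SE 0.86). Prss28, Prss29, Spink1 and S100g had far lower levels in E4.5 replicate 3 than in the other E4.5 libraries, with positions of 0.45, 0.28, 0.44 and 0.35. Foxa2, Sox17, Pax8 and Sox9, transcription factors of glands and their ducts, had log2 fold changes of 0.44, 0.66, 0.35 and 0.3 and were not called in either fit. Aldh1a1 and Calb1 were called higher at E0.5 without E4.5 replicate 3 and lay on the opposite side in it, Aldh1a1 with 3.9, 2.37 and 1.73 FPKM at E0.5 against 0.17, 0.478 and 76.3 FPKM at E4.5 and Calb1 with 11.5, 9.25 and 6.56 FPKM at E0.5 against 0.711, 1.74 and 14.1 FPKM at E4.5. The library agreed in 5 of 7 called genes.

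Among serine proteases and their inhibitors, 5 of 28 were higher and 7 lower at E0.5 by the study's criterion. Past the adjusted p, 2 were higher and 2 lower, and without E4.5 replicate 3, 4 and 7. Spink12, a protease inhibitor, had 5.22, 5.56 and 4.63 FPKM at E0.5 against 0, 0 and 0.0859 FPKM at E4.5, and Tmprss11d, an airway-type protease of epithelial surfaces, 3.73, 3.12 and 2.23 FPKM at E0.5 against 0.0946, 0.0974 and 0 FPKM at E4.5 (5.5, SE 1.11). Prss35 had 0, 0 and 0.0125 FPKM at E0.5 against 1.04, 1.87 and 42.5 FPKM at E4.5, so E4.5 replicate 3 supplied most of its E4.5 mean. The count higher at E0.5 was 8 without E4.5 replicate 1. Spint1, an inhibitor of epithelial surface proteases, was at -1.13, SE 0.59 over 6 libraries and -1.56 without E4.5 replicate 3, whose 4.97 FPKM lay within the E0.5 range. It agreed in 10 of 11 called genes.

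Of 22 genes of implantation and decidualization, 5 were higher and 6 lower at E0.5 by the study's criterion and 2 in each direction by the adjusted p. Without E4.5 replicate 3, the adjusted p called 5 in each direction, and this library agreed in 10 of 10 of them, at a median position of 1.02. The list's median was 0.34 (0.06 without E4.5 replicate 3). Among ligands and signals lower at E0.5, Bmp2 (chromosome 2, 133552159 to 133562885), which stromal cells need to become decidua, had 0.484, 0.521 and 0.58 FPKM at E0.5 against 8.25, 4.92 and 3.97 FPKM at E4.5 (-3.44, SE 0.36, adjusted p = 0.0187 in edgeR's test). Angpt2, a regulator of vessel growth, and Lifr, the receptor of leukemia inhibitory factor, had log2 fold changes of -1.67 and -1.56, and Angpt2 passed the adjusted p. Gja1, the gap junction protein of decidualizing stroma, had 8.08, 7.3 and 6.87 FPKM at E0.5 against 27, 26.6 and 108 FPKM at E4.5 (-2.82, SE 0.57), highest in E4.5 replicate 3. Dio3, which inactivates thyroid hormone, had 0.0432, 0.385 and 0.205 FPKM at E0.5 against 7.76, 6.24 and 0.619 FPKM at E4.5 (-4.51, SE 1.14). Higher at E0.5 were Alpl, tissue alkaline phosphatase, with 11.3, 16.5 and 12.7 FPKM at E0.5 against 1.34, 1.29 and 1.36 FPKM at E4.5 (3.35, SE 0.22, adjusted p = 0.00631 in edgeR's test), and Ptgs2, the inducible cyclooxygenase, with 11.6, 5.26 and 12.3 FPKM at E0.5 against 0.996, 0.936 and 0.151 FPKM at E4.5 (3.79, SE 0.76). Lif, the cytokine of the receptive phase, had a log2 fold change of 1.43 (0.91 without E4.5 replicate 3) and Hbegf, an EGF receptor ligand of the attachment reaction, 0.47 (0.22), and neither was called.

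Of 18 retinoid genes, 4 were higher at E0.5 by the study's criterion, Rdh10, Dhrs9, Rbp4 and Dhrs3, and 3 were lower, Cyp26a1, Stra6 and Lrat, and 11 did not meet it. Over 6 libraries 2 passed the adjusted p, both lower, and without E4.5 replicate 3 it called 4 higher and 3 lower. Rdh10, which oxidizes retinol, had 10.9, 10.8 and 9.45 FPKM at E0.5 against 4.65, 4.59 and 3.04 FPKM at E4.5 (1.34, SE 0.23). Stra6, the receptor that takes up retinol from its carrier, had 1.61, 1.29 and 1.29 FPKM at E0.5 against 13.3, 12.1 and 3.09 FPKM at E4.5 (-2.77, SE 0.55), and Lrat, which stores retinol as esters, 0.481, 0.555 and 0.737 FPKM at E0.5 against 3.28, 2.79 and 6.26 FPKM at E4.5 (-2.77, SE 0.36, adjusted p = 0.0291 in edgeR's test). The count higher at E0.5 was 2 without E4.5 replicate 2. E4.5 replicate 3 agreed in 6 of 7 called genes and lay on the opposite side for Aldh1a1.

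Of 20 prostaglandin genes, 5 were higher and 3 lower at E0.5, and 1 in each direction passed the adjusted p (5 higher and 1 lower without E4.5 replicate 3). Cbr2, a carbonyl reductase that can convert prostaglandins, was the most abundant, with 86.2, 137 and 186 FPKM at E0.5 against 5.06, 5.98 and 5.0 FPKM at E4.5 (4.69, SE 0.34, adjusted p = 0.00749 in edgeR's test). Ptger2, a prostaglandin E2 receptor, had 0.936, 1.06 and 0.592 FPKM at E0.5 against 6.07, 5.55 and 2.86 FPKM at E4.5 (-2.48, SE 0.38). The other 2 genes lower at E0.5 rested on E4.5 replicate 3. Ptgfr, the prostaglandin F2α receptor that luteal cells carry, had 2.01, 1.7 and 1.6 FPKM at E0.5 against 1.25, 1.28 and 160.4 FPKM at E4.5, and its log2 fold change was -4.88, SE 1.9 and became 0.47 without that library. Ptges, a prostaglandin E synthase, had 1.23, 1.34 and 1.53 FPKM at E0.5 against 2.21, 2.26 and 16.1 FPKM at E4.5. Among genes called without E4.5 replicate 3, it agreed in 5 of 6. The median of the list was -0.01 over 6 libraries and 0.28 without E4.5 replicate 3. The count higher at E0.5 was 3 without E0.5 replicate 2 or E4.5 replicate 2, and the count lower was 1 without E0.5 replicate 2, E0.5 replicate 3 or E4.5 replicate 3.

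Genes of luminal fluid and ion transport were higher at E0.5 in 9 of 25 and lower in 2, and 4 passed the adjusted p (Aqp4, Slc26a9, Car2 and Slc34a2). Without E4.5 replicate 3, 9 higher and 3 lower passed it. Slc26a9, an epithelial chloride transporter, had 2.3, 2.7 and 5.97 FPKM at E0.5 against 0.25, 0.206 and 0.252 FPKM at E4.5 (3.95, SE 0.44), and Slc26a4, a chloride and bicarbonate exchanger, 9.99, 5.77 and 6.33 FPKM at E0.5 against 0.661, 0.668 and 0.0584 FPKM at E4.5 (3.97, SE 0.86). Aqp4, a water channel, had 2.57, 3.69 and 5.96 FPKM at E0.5 against 0.0692, 0.0685 and 0.351 FPKM at E4.5 (4.68, SE 0.78), and Aqp1, the most abundant of the list and a channel of vessels and stroma, 102, 104 and 116 FPKM at E0.5 against 45.4, 47 and 17.6 FPKM at E4.5 (1.55, SE 0.39). Aqp8 went the other way, with 0, 0.0624 and 0.308 FPKM at E0.5 against 10.2, 16 and 0.868 FPKM at E4.5 (-6.11, SE 1.61), so these water channels had opposite directions. Cftr, the chloride channel of secretory epithelium, had a log2 fold change of 2.96 (3.86 without E4.5 replicate 3). The count lower at E0.5 was 4 without E4.5 replicate 3 and 1 without E0.5 replicate 2, E4.5 replicate 1 or E4.5 replicate 2. This library agreed in 11 of 12 called genes and lay on the opposite side for Slc12a2, a chloride importer, with 15, 12.3 and 11 FPKM at E0.5 against 24.1, 26.5 and 7.97 FPKM at E4.5.

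Cell division genes were lower at E0.5, and mitosis had the largest share of called rows of the 33 lists. Of 34 mitosis genes, 34 were lower by the study's criterion, 23 were past the adjusted p and 33 passed it without E4.5 replicate 3. The median log2 fold change was -2.55 (-2.54 without that library). Ccnb1 (chromosome 13, 100778650 to 100786570), the mitotic cyclin, had 0.172, 0.287 and 0.372 FPKM at E0.5 against 4.54, 3.16 and 4.56 FPKM at E4.5 (-3.85, SE 0.38, adjusted p = 0.0173 in edgeR's test). The row of Top2a, which untangles sister chromatids, had 1.13, 1.06 and 1.29 FPKM at E0.5 against 12.7, 7.87 and 7.28 FPKM at E4.5 (-3.0, SE 0.29). Bub1, a kinase of the spindle checkpoint, had 0.402, 0.177 and 0.384 FPKM at E0.5 against 3.71, 2.28 and 3.0 FPKM at E4.5, and Birc5, survivin, 0.193, 0.451 and 0.164 FPKM at E0.5 against 2.8, 1.93 and 1.93 FPKM at E4.5. Fold changes of the 34 genes lay between -1.50 and -3.85. E4.5 replicate 3 agreed in 33 of 33 called genes, at a median position of 0.97. It also carried the ovary markers, and their part in its levels of mitosis genes was not tested.

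Of 38 DNA replication genes, 27 were lower and 0 higher by the study's criterion, 13 were past the adjusted p and 23 passed it without E4.5 replicate 3 (median -1.32 and -1.29). Rrm2, the S-phase subunit of ribonucleotide reductase, had 0.967, 0.633 and 0.575 FPKM at E0.5 against 27.5, 18.8 and 4.42 FPKM at E4.5 (-4.56, SE 0.72). Pole, the catalytic subunit of DNA polymerase epsilon, had 0.295, 0.389 and 0.186 FPKM at E0.5 against 2.78, 1.53 and 1.63 FPKM at E4.5, Uhrf1, which carries DNA methylation through replication, 1.01, 0.448 and 0.671 FPKM at E0.5 against 4.73, 3.03 and 6.13 FPKM at E4.5, and Pcna, the sliding clamp, 7.42, 6.17 and 7.35 FPKM at E0.5 against 18.52, 15.4 and 19.1 FPKM at E4.5 (-1.33, SE 0.17, adjusted p = 0.029 in edgeR's test). The row of Mcm7, a subunit of the helicase, and Rfc4, a subunit of the clamp loader, were not called, with log2 fold changes of -0.24 and -0.39. E4.5 replicate 3 agreed in 23 of 23 called genes, and the part of its ovary markers in these levels was not tested either.

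Of 18 immediate early genes, 2 were higher and 1 lower at E0.5 by the study's criterion (4 higher without E0.5 replicate 3 and 5 higher without E4.5 replicate 1), and Fos passed the adjusted p. Fos had 9.09, 7.53 and 6.05 FPKM at E0.5 against 2.51, 1.66 and 1.91 FPKM at E4.5 (1.89, SE 0.27, adjusted p = 0.0353 in edgeR's test) and Atf3 11.1, 3.24 and 1.71 FPKM at E0.5 against 0.204, 1.11 and 0.605 FPKM at E4.5 (3.08, SE 0.86), where E0.5 replicate 1 was highest. Myc was lower at E0.5 with 2.89, 2.63 and 3.37 FPKM at E0.5 against 14.1, 14.2 and 3.46 FPKM at E4.5, and E4.5 replicate 3 lay next to the E0.5 values. Of 2 immediate early genes called without that library, it agreed in 1, Fos. In the EGF family, 2 of 13 genes were higher and 4 lower by the study's criterion (2 lower without E0.5 replicate 2), 1 in each direction passed the adjusted p, and 2 in each direction without E4.5 replicate 3. The row of Nrg1, a ligand of ERBB3 and ERBB4, had 2.87, 3.31 and 3.48 FPKM at E0.5 against 0.121, 0.492 and 0.166 FPKM at E4.5 (3.64, SE 0.54), whereas Areg and Ereg, ligands of the EGF receptor, had no counts at E0.5 and low levels at E4.5, with 0.827, 0.341 and 0.332 FPKM for Areg and 0.22, 0.158 and 0.265 FPKM for Ereg. They were at least 50.4-fold and 72.8-fold higher at E4.5, with 3 counts over the E0.5 group as the floor. In 4 of 4 called genes E4.5 replicate 3 agreed.

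Of 32 Wnt pathway genes, 5 were higher and 7 lower at E0.5 by the study's criterion, with 1 past the adjusted p in each direction (2 higher and 6 lower without E4.5 replicate 3). Rspo3, a secreted amplifier of Wnt signalling, had 13.7, 13.6 and 18.3 FPKM at E0.5 against 1.61, 2.25 and 0.738 FPKM at E4.5 in a row shared with Gm20276 (3.31, SE 0.43). Among ligands lower at E0.5, Wnt11, Wnt6 and Wnt7b had log2 fold changes of -2.98, -2.99 and -2.62, and Wnt11 passed the adjusted p. Sfrp5, a secreted inhibitor, had 0.155, 0.245 and 0.0704 FPKM at E0.5 against 3.74, 4.4 and 0.178 FPKM at E4.5 (-4.12, SE 1.14), and Lef1, a transcription factor of the pathway, 0.263, 0.287 and 0.263 FPKM at E0.5 against 4.12, 2.31 and 0.22 FPKM at E4.5 (-3.05, SE 0.93). For both, E4.5 replicate 3 did not lie with its day. It agreed in 6 of 8 called genes. Sfrp4, also an inhibitor, had 6.65, 8.88 and 5.39 FPKM at E0.5 against 10.1, 17.5 and 198 FPKM at E4.5 and a log2 fold change of -3.37, SE 1.11 that was -0.99 without E4.5 replicate 3.

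In the BMP and activin list, 5 of 23 were lower and 0 higher at E0.5 by the study's criterion over 6 libraries, whereas without E4.5 replicate 3 there were 5 higher and 6 lower. The adjusted p called 2 lower, and 3 higher and 4 lower without that library. The list's median was -0.67 over 6 libraries and 0.04 without this library. Nog, an inhibitor of BMP ligands, had 0.412, 0.71 and 0.479 FPKM at E0.5 against 14, 14.7 and 2.05 FPKM at E4.5 (-4.26, SE 0.78) and, like the ligand Bmp2 and the inhibitor Fst above, lay on the E4.5 side in E4.5 replicate 3. Inhbb, the beta B subunit of activin and inhibin, had 8.27, 9.79 and 11.6 FPKM at E0.5 against 2.39, 3.66 and 42.8 FPKM at E4.5. It was higher at E0.5 without E4.5 replicate 3 (1.7) and far above the E0.5 values in it. Grem1, an inhibitor of BMP, had no counts at E0.5, whereas it had 0.0799, 0.067 and 6.83 FPKM at E4.5, nearly all of it in E4.5 replicate 3 (adjusted p = 0.191 in edgeR's test). Inhibin subunits are made in granulosa cells, and the part of ovary markers in these values was not tested.

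Genes of protein folding in the endoplasmic reticulum (ER) were lower at E0.5 for 9 of 27 by the study's criterion, 7 were past the adjusted p and 10 passed it without E4.5 replicate 3. The median was -0.69 (-0.80 without that library). Hspa5 (chromosome 2, 34771970 to 34777547), the main chaperone of the ER, had 11.4, 11.3 and 13.5 FPKM at E0.5 against 51.1, 50.8 and 54 FPKM at E4.5 (-2.09, SE 0.16, adjusted p = 0.00839 in edgeR's test). Hyou1, a further chaperone, had 6.41, 4.03 and 5.51 FPKM at E0.5 against 21.7, 18.9 and 18.8 FPKM at E4.5, and Sdf2l1, its partner in the same complexes, 1.58, 2.29 and 2.94 FPKM at E0.5 against 15.8, 15.2 and 9.86 FPKM at E4.5. The positions of E4.5 replicate 3 in these 3 genes were 1.0, 0.91 and 0.74. Xbp1, the transcription factor that induces such genes, had 9.91, 14.2 and 11.2 FPKM at E0.5 against 32.2, 30.8 and 12.1 FPKM at E4.5, with this library within the E0.5 range. It agreed in the other 9 of 10 called genes. P4hb, the most abundant of the list, did not pass at -0.42, SE 0.19. The count was 6 without E4.5 replicate 1 and 11 without E4.5 replicate 3.

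Calls among genes of cholesterol synthesis rested on E4.5 replicate 3. Of 21 tested genes, 8 were lower at E0.5 by the study's criterion and 0 passed the adjusted p over 6 libraries in edgeR's test (8 had an unadjusted p under 0.05, and DESeq2 called 3), and E4.5 replicate 3 had the highest value for 19 of 21. The median log2 fold change was -1.62 over 6 libraries and -0.13 without it, and 1 gene, Lss, passed the adjusted p without it. Hsd17b7, which acts in cholesterol synthesis and in estradiol synthesis of the corpus luteum, had 1.95, 1.1 and 1.31 FPKM at E0.5 against 1.51, 1.34 and 165 FPKM at E4.5. Dhcr7, which makes the last step of cholesterol synthesis, had 1.76, 1.83 and 1.73 FPKM at E0.5 against 2.27, 2.24 and 39.2 FPKM at E4.5, and Msmo1, a sterol oxidase, 1.71, 1.09 and 1.23 FPKM at E0.5 against 1.57, 1.41 and 26 FPKM at E4.5. Without this library, their log2 fold changes were 0.01, -0.36 and -0.17, and none of the 3 was called. The ovary markers moved with these genes, and their part was not tested. By the study's criterion the count was 10 or 13 without E4.5 replicate 1 or 2, 3 without E4.5 replicate 3, and 3, 3 and 2 without E0.5 replicates 1, 2 and 3.

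Steroid receptors and steroid-converting enzymes had 1 higher and 3 lower of 19 by the study's criterion (2 higher without E0.5 replicate 1, E0.5 replicate 2 or E4.5 replicate 2). Among all protein-coding rows, 6.36% were higher and 8.26% lower by this criterion. The adjusted p called 1 lower, and 1 higher and 2 lower without E4.5 replicate 3. Srd5a1, which reduces progesterone and testosterone, had 1.55, 1.28 and 1.13 FPKM at E0.5 against 10.2, 20.003 and 5.42 FPKM at E4.5 in a row shared with Gm17108 (-3.16, SE 0.48), and Hsd11b1, which regenerates active glucocorticoid, 0.79, 0.799 and 0.922 FPKM at E0.5 against 2.18, 2.77 and 1.46 FPKM at E4.5 (-1.34, SE 0.29). Hsd17b2, which inactivates estradiol, was higher at E0.5, with 1.11, 1.83 and 2.76 FPKM at E0.5 against 0.347, 0.308 and 0.738 FPKM at E4.5 (2.05, SE 0.5). These 3 were on the E4.5 side in E4.5 replicate 3. Esr2, the second estrogen receptor and a gene of granulosa cells, was at 0.00658 to 0.0253 FPKM in 5 libraries and at 13.1 FPKM in E4.5 replicate 3. Pgr, the progesterone receptor, had 3.45, 4.34 and 6.58 FPKM at E0.5 against 8.86, 9.52 and 1.31 FPKM at E4.5, again lowest in E4.5 replicate 3.

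Of 24 genes of glycolysis and the hypoxia response, 4 were higher and 1 lower at E0.5 by the study's criterion, and 2 higher passed the adjusted p. It called 4 higher and 2 lower without E4.5 replicate 3. The count lower by the study's criterion was 0 without E0.5 replicate 2 and 2 without any other library but E0.5 replicate 3. Egln3, an oxygen sensor that hypoxia induces, had 14, 14.5 and 21.2 FPKM at E0.5 against 1.46, 0.903 and 0.798 FPKM at E4.5 (3.97, SE 0.36), Pfkfb3, which activates glycolysis, 8.3, 6.36 and 4.36 FPKM at E0.5 against 1.88, 1.21 and 2.2 FPKM at E4.5 (1.85, SE 0.32), and Ankrd37 and Car9 were the others higher at E0.5. Slc2a1, a glucose transporter, was the gene lower at E0.5, with 3.11, 2.36 and 2.9 FPKM at E0.5 against 8.88, 10.4 and 3.15 FPKM at E4.5, where E4.5 replicate 3 lay next to the E0.5 values. It agreed in 4 of 6 called genes. Glycolytic enzymes such as Aldoa (54.7, 57.3 and 76.3 FPKM at E0.5 against 44.5, 46.2 and 69.6 FPKM at E4.5) were not called. Of 75 cytosolic ribosome genes, 1 was lower by the study's criterion, Rpl39l with 0, 0 and 0 FPKM at E0.5 against 0.348, 0 and 0.32 FPKM at E4.5, and 0 passed the adjusted p in either fit of edgeR's test (5 and 15 had an unadjusted p under 0.05, and DESeq2 called 0). Of 72 genes of oxidative phosphorylation, 2 were lower, Ndufa12 (-1.15, SE 0.33) and Uqcrq (-1.09, SE 0.37), 0 passed the adjusted p in either fit of edgeR's test (9 and 7 had an unadjusted p under 0.05, and DESeq2 called 1), and E4.5 replicate 3 had the highest value for 47 of 72. The medians were -0.17 for the ribosome and -0.22 for oxidative phosphorylation over 6 libraries, and -0.30 and -0.06 without E4.5 replicate 3. Relative to the E0.5 mean, the ribosome list stood at 0.44, 0.38 and -0.18 in E4.5 replicates 1, 2 and 3 (mean log2 CPM), so E4.5 replicate 3 did not lie with the other libraries of its day. With other single libraries left out, the counts lower were 0 to 2 for the ribosome and 1 or 2 for oxidative phosphorylation. Over 6 libraries, both lists had a smaller share lower than the 8.26% of all protein-coding rows.

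Of 20 smooth muscle genes, 0 met the study's criterion over 6 libraries and 0 passed the adjusted p of edgeR's test with or without E4.5 replicate 3 (1 had an unadjusted p under 0.05 over 6 libraries and 5 without it, and DESeq2 called 0). The criterion called 3 without E4.5 replicate 1. Acta2, smooth muscle actin, had 278, 443 and 449 FPKM at E0.5 against 512, 304 and 112 FPKM at E4.5, and Myh11, smooth muscle myosin, 98.1, 136 and 130.2 FPKM at E0.5 against 97.4, 79.3 and 20.3 FPKM at E4.5. Both were lowest in E4.5 replicate 3, and the median of the list was 0.39 over 6 libraries and -0.05 without this library. Of 34 extracellular matrix genes, 6 were higher and 2 lower at E0.5 by the study's criterion. The adjusted p called 1 lower, and 5 higher and 2 lower without E4.5 replicate 3. Lox, which crosslinks collagen, had 26.8, 27.2 and 37.2 FPKM at E0.5 against 5.78, 11.2 and 3.18 FPKM at E4.5 (2.19, SE 0.46), Dcn, decorin, 70.9, 78.8 and 116 FPKM at E0.5 against 28.3, 40.7 and 22.1 FPKM at E4.5 (1.55, SE 0.3), and Thbs2, thrombospondin 2, 5.91, 6.88 and 7.81 FPKM at E0.5 against 0.317, 0.331 and 3.52 FPKM at E4.5, nearer to the E0.5 values in E4.5 replicate 3 (position 0.23). Vcan, versican, a proteoglycan of loose matrix, was lower at E0.5, with 1.02, 0.861 and 0.867 FPKM at E0.5 against 12.7, 7.43 and 6.13 FPKM at E4.5 (-3.26, SE 0.34, adjusted p = 0.0192 in edgeR's test). Of 7 called genes of this list, E4.5 replicate 3 agreed in 6. Among collagens, Col1a2 met the study's criterion (1.04), and the row of Col3a1, which was not called, had 132, 187 and 181 FPKM at E0.5 against 112, 101 and 70.9 FPKM at E4.5.

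Among metalloproteinases and their inhibitors, 6 of 22 were higher and 2 lower at E0.5 by the study's criterion, and 3 higher passed the adjusted p (6 higher without E4.5 replicate 3). Mmp3, which cleaves matrix proteoglycans, had 3.29, 5.99 and 6.71 FPKM at E0.5 against 0.661, 0.156 and 0 FPKM at E4.5 (4.22, SE 1.35). Mmp14 and Timp2, a membrane protease and an inhibitor that act together on proMMP2, passed the adjusted p at log2 fold changes of 1.79 and 1.06, whereas Mmp2 itself had 32.7, 29 and 46.2 FPKM at E0.5 against 59.8, 70.5 and 41.6 FPKM at E4.5 (-0.67, SE 0.28). Mmp7, a protease of glandular epithelium, was lower at E0.5 with 3.18, 0.655 and 8.1 FPKM at E0.5 against 59.9, 32.2 and 4.36 FPKM at E4.5, and Timp1 had 1.1, 2.31 and 1.32 FPKM at E0.5 against 2.83, 2.04 and 16.2 FPKM at E4.5, with a log2 fold change of -2.1 over 6 libraries and -0.65 without E4.5 replicate 3. E4.5 replicate 3 agreed in 5 of 6 called genes, and the count higher at E0.5 was 4 without E0.5 replicate 3 or E4.5 replicate 2. The count lower was 0 without E0.5 replicate 2 and 1 without any other library, so 2 was reached only with all 6 libraries.

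**Figure D4:**
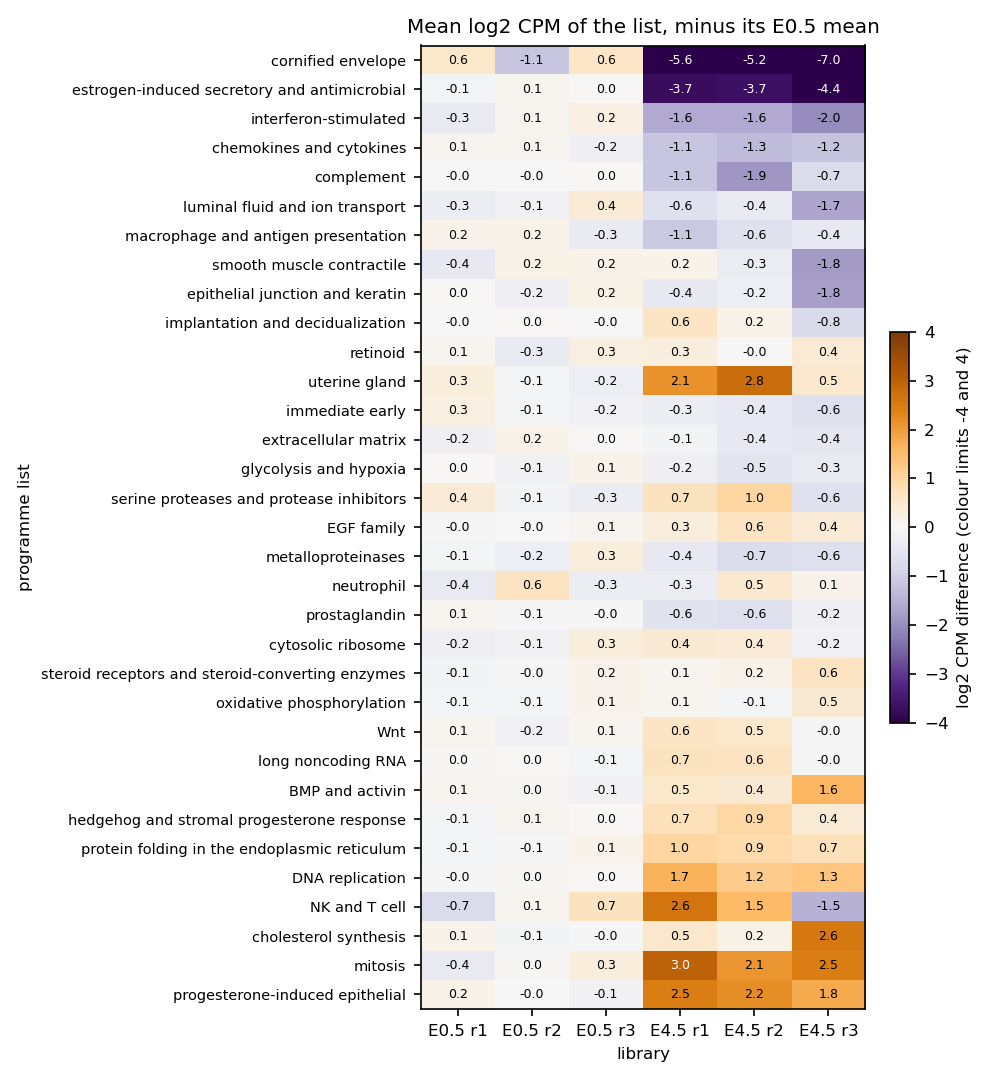
Mean log2 CPM of each programme list (rows) in each library (columns), minus the mean of the list over the E0.5 libraries; orange is above and purple below that mean. Mitosis is at 2.97, 2.12 and 2.50 in the E4.5 libraries, NK and T cell genes at 2.61, 1.55 and -1.48, and cholesterol synthesis at 0.52, 0.21 and 2.59.

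A set of 194 protein-coding rows of 1 gene each with a mean of at least 1 FPKM was higher at E0.5 past the adjusted p in both fits without overlap of the groups, and 134 such rows were lower. Among the 10 with the largest fold changes in each direction, Pla2g2e, a secreted phospholipase, had 24.9, 27.5 and 14.5 FPKM at E0.5 against 0, 0 and 0.192 FPKM at E4.5, Dmbt1, a mucosal scavenger protein, 4.6, 4.5 and 3.57 FPKM at E0.5 against 0.0043, 0.039 and 0.0265 FPKM at E4.5 (7.5, SE 0.7), and Cyp21a1, the steroid 21-hydroxylase, 20.1, 9.07 and 5.0 FPKM at E0.5 against 0.0901, 0.0801 and 0.322 FPKM at E4.5. Cyp21a1 is an adrenal gene, and the other 3 adrenal markers were below the filter. Lower at E0.5, Efhd1, a calcium-binding protein of mitochondria, had 0.547, 0.456 and 0.329 FPKM at E0.5 against 50.6, 42.8 and 50.3 FPKM at E4.5 (-6.74, SE 0.28, adjusted p = 0.00496 in edgeR's test), with the smallest SE of these 20 genes. Atp6v0d2, a subunit of the proton pump, had 0.651, 0.447 and 0.424 FPKM at E0.5 against 46.2, 37.8 and 6.51 FPKM at E4.5, Map2, a microtubule protein, 0.131, 0.282 and 0.266 FPKM at E0.5 against 7.03, 6.58 and 1.93 FPKM at E4.5, and Cyp1b1, which hydroxylates estradiol, 1.14, 0.388 and 0.407 FPKM at E0.5 against 12.9, 7.91 and 36.2 FPKM at E4.5. E4.5 replicate 3 was highest for Cyp1b1 and lowest for Atp6v0d2 and Map2. Since the rule asked for no overlap of the groups, its side was fixed by the choice of these genes.

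Among 3558 tested lncRNA rows, 6.32% were higher and 4.83% lower at E0.5 by the study's criterion. In a list of 34 named lncRNAs, 1 was higher and 5 lower, with 0 past the adjusted p over 6 libraries in edgeR's test (6 had an unadjusted p under 0.05, and DESeq2 called 4) and a median of -0.43. Without E4.5 replicate 3, 8 were lower by the study's criterion, and with single other libraries left out 3 or 4. The count higher was 2 without E0.5 replicate 1 and 0 without E0.5 replicate 2, E0.5 replicate 3 or E4.5 replicate 2. The row of Hoxa11os, antisense to a homeobox gene of the uterus, had 0.947, 1.65 and 1.33 FPKM at E0.5 against 12.9, 11.1 and 0.68 FPKM at E4.5 (-2.66, SE 0.94). H19, an imprinted RNA, had 0.383, 0.645 and 0.863 FPKM at E0.5 against 4.16, 2.11 and 0.877 FPKM at E4.5, and Hand2os1, next to Hand2, 1.23, 1.62 and 1.9 FPKM at E0.5 against 10.2, 7.11 and 0.655 FPKM at E4.5. Strand is not stated for the counts, so reads of Hoxa11os and Hand2os1 and those of their neighbours Hoxa11 and Hand2 cannot be told apart. Of the 4 lncRNAs called without E4.5 replicate 3, this library agreed in 1, lay within the E0.5 range in 1 and on the opposite side in 2. By the rule of largest fold changes outside the list, Tnfsf13os was higher at E0.5 with 2.19, 2.31 and 2.43 FPKM at E0.5 against 0.173, 0.188 and 0.381 FPKM at E4.5 (3.22, SE 0.39), and by its name it lies opposite to Tnfsf13, whose reads cannot be told apart from its own.

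**Figure D5:**
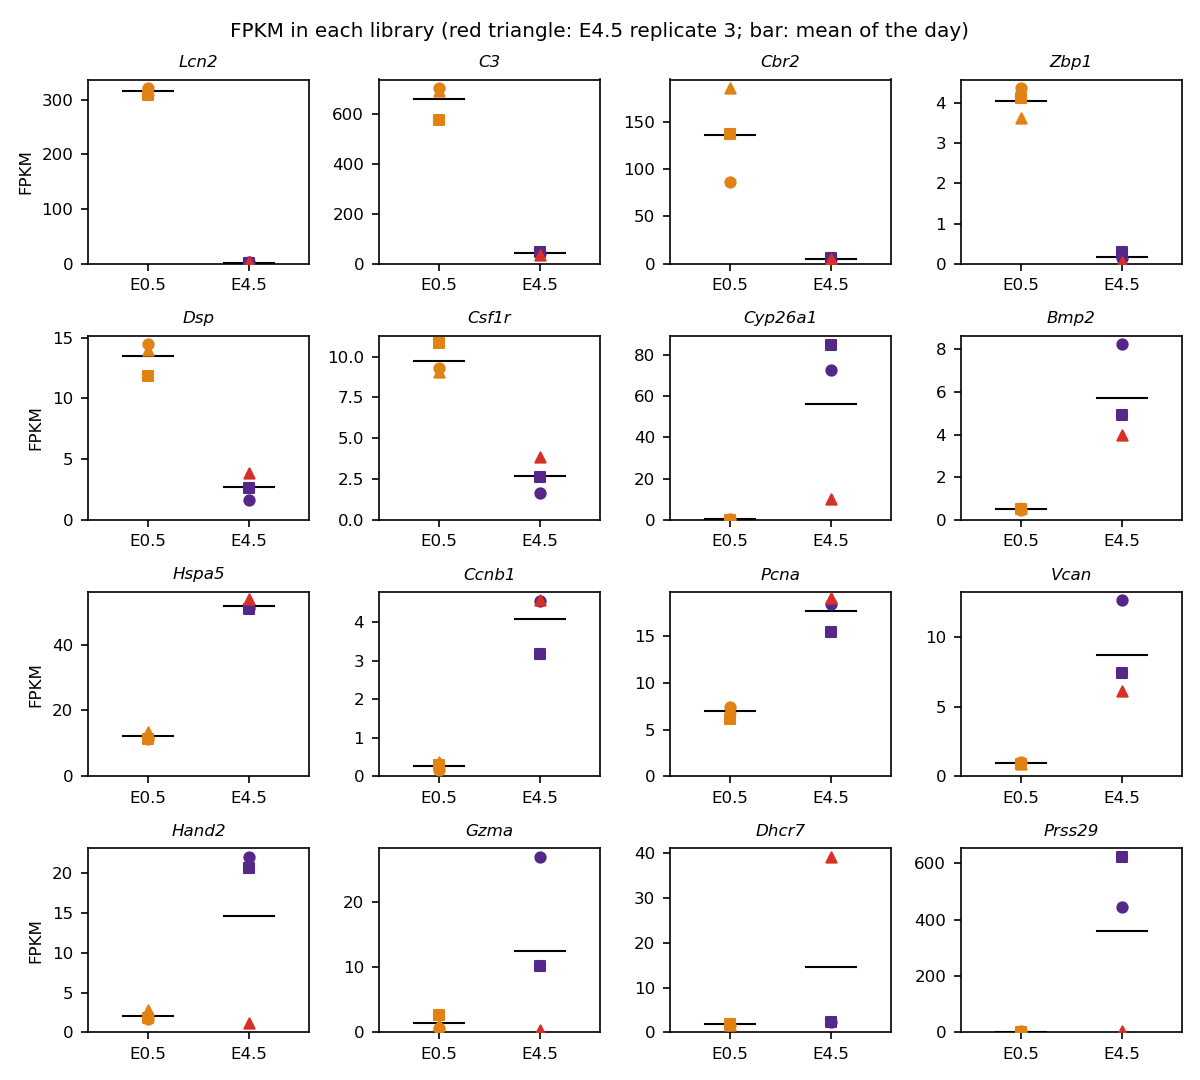
FPKM (y axis, from 0) of 16 genes in each library at E0.5 (orange) and E4.5 (purple for replicates 1 and 2, red triangle for replicate 3), with black bars for the mean of the day. Lcn2, C3, Cbr2, Zbp1, Dsp, Hspa5, Ccnb1 and Pcna keep replicate 3 with its day, whereas it lies with or below the E0.5 libraries for Hand2 and Gzma and far above all others for Dhcr7.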

How the data were processed

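Whole uteri of 3 ICR mice at E0.5 and 3 at E4.5, 1 mouse a library, were sequenced by the authors. Counts and FPKM per gene were deposited by the authors in 1 table. The methods name Cutadapt, Bowtie2, Tophat2, StringTie and Ballgown, the submitters' processing notes Bowtie 0.12.2, HISAT2 2.0 and StringTie 1.3.0 with the builds mm10 and mm8, and how reads were assigned to genes is not given in the sources used here. An FPKM of 0 is written in the deposited table as 0.0001 and was set back to 0. Of 18921 rows whose name RefSeq holds, 18916 overlapped that gene in GRCm38, and coordinates are printed on that build. A second deposited table, of E15.5 and E18.5, was not used.

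All 59732 rows whose mean reached 0.1 FPKM were fitted with edgeR's quasi-likelihood test on the counts (TMM scaling), with Benjamini-Hochberg adjustment over all of them, and annotated rows are reported. Rows without a gene name took 1.02% to 1.86% of counts. The call rules were a log2 fold change of 1 or more in size together with an unadjusted p under 0.05 (the study's criterion) or an adjusted p under 0.05. The self-test on simulated counts was run before the fits. The gene lists and the rule for named genes were chosen with earlier results of these data known. That rule took the 10 protein-coding and up to 4 lncRNA rows with the largest fold changes in each direction (mean of at least 1 FPKM, past the adjusted p in both fits, no overlap), up to 3 per direction and the most abundant row of each list, up to 2 rows per list in which E4.5 replicate 3 did not agree, and up to 3 rows of each marker list. Further list members named in the text were chosen after their values were seen. Some rows that the rule takes are not reported here by name, though list counts include them. Labels do not say that replicate numbers pair mice, and same-numbered libraries did not deviate together (correlations of -0.083, 0.021 and -0.073). Alternatives were other scalings, filters and tools, the replicate block and each library left out. Precision is limited by 3 mice a day. Tools were R 4.3.3, edgeR 4.0.16, limma 3.58.1, DESeq2 1.42.0, Python 3.11.15, pandas 2.3.3, NumPy 2.4.6, SciPy 1.17.1 and matplotlib 3.10.9.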

Additional observations from a re-analysis of the deposited data

How the results depend on the processing

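By the study's criterion, 3088 annotated rows were called, against 1935 with a mean of at least 1 FPKM required, 1170 with limma on log2(FPKM + 1) and 2575 to 3545 with 1 library left out. The adjusted p called 474 rows, against 2222 with DESeq2 and 0 to 1764 with 1 library left out (lowest without E0.5 replicate 2, highest without E4.5 replicate 3). The fit with the replicate block called 0 by edgeR's adjusted p, with 4248 annotated rows at an unadjusted p under 0.05 and 2774 by the study's criterion; the labels do not say that replicate numbers pair mice. With 1 library left out, the log2 fold change of Hsd17b7 ran from -5.80 to 0.0051, that of Ptgfr from -5.47 to 0.47 and that of Nlrp14 from -9.63 to 4.53, each reversed only without E4.5 replicate 3. Upper-quartile scaling raised the median log2 fold change of all rows by 0.08. Over the settings tried, single genes kept their direction and their side of the threshold in 2482 cases, passed it in 167, lost it in 358 and reversed in 3. Results of whole programme lists moved in 115 cases and stayed in 380, and without E4.5 replicate 3 they moved for 20 of 33 lists. The causes were not tested.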
